A study of Mus musculus with 54 samples.

Results

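Castrated TKO mice given CPI1688, an Ezh2 inhibitor, were compared with castrated TKO mice given vehicle, by bulk RNA sequencing of prostate tumour tissue. The animals were chosen by their genotype and treatment labels, 4 with CPI1688 and 4 with vehicle, which makes 8 of the 54 libraries of the series. The TKO genotype is one of several genetically engineered prostate tumour models in the series. Its alleles, the promoter that drives recombination, and the dose and schedule of CPI1688 are not given in the sources used here. The series description places castration at 12 weeks and treatment after it. Vehicle animals 1 to 4 were sampled at 19, 15, 17 and 17 weeks and CPI1688 animals 1 to 4 at 18, 19, 19 and 18 weeks, numbered in accession order. The mean age was 17.0 ± 1.63 weeks with vehicle and 18.5 ± 0.58 weeks with CPI1688 (SD, n = 4 each). That gap of 1.5 weeks gave an exact two-sided permutation p = 0.2, in a design that cannot go below 0.0286. The animal identifiers of the groups do not interleave, all those of CPI1688 animals being lower numbers than those of vehicle animals. What the numbers record is not given in the sources used here, and anything that follows them cannot be told apart from treatment. Castrated tumours of the DKO model and of DKO_EE, a DKO model described as carrying an Ezh2 deletion, serve below as a genetic comparison, with 4 and 5 animals. They were older, at 39 to 99 weeks in DKO and 35 to 59 weeks in DKO_EE. Castrated DKO_EP tumours, 5 animals of 34 to 37 weeks, enter those fits for the spread. They are described with an Ezh2 deletion as well, but how EP differs from EE is not given in the sources used here. Mean Ezh2 was 9.17 in castrated DKO_EP, 9.36 in DKO and 8.46 in DKO_EE.

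Ezh2 is the catalytic subunit of Polycomb repressive complex 2 (PRC2), which methylates lysine 27 of histone H3 together with Suz12 and Eed. The mark keeps developmental genes silent, the Hox clusters being the classic example, and it is read by Polycomb repressive complex 1 (PRC1). In prostate cancer, Ezh2 is known for high expression in advanced tumours and for its link to neuroendocrine lineage change, in which tumour cells lose luminal identity and gain neuronal markers. An inhibitor of the enzyme acts on its activity, so the Ezh2 transcript does not report on target engagement. Histone methylation was not analysed here.

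Expression is given throughout as the deposited log2 of a normalized count plus 1, on which a difference of 1 is a doubling for all but low genes. A change means the CPI1688 mean minus the vehicle mean on that scale. Depth, recovered from the values, was 5467128 to 6426670 gene reads a library among these 8. Since tissue was profiled in bulk, fewer cells of a type and less RNA per cell cannot be told apart.

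The tumours were epithelial and mostly neuroendocrine, and 2 of the 8 stood apart. Epcam and Krt8, epithelial genes, were at 8.91 or above and 9.58 or above in every animal. Pbsn, the androgen-dependent secretory gene probasin, was listed at 0 in every library but CPI1688 animal 2, at 1.15. Trp53 was at 5.80 to 7.85 in the 8 tumours, below its lowest value of 8.05 in castrated DKO and DKO_EE tumours. Rb1 transcripts were present in all 8, at 8.23 to 9.13.

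Foxa2, a factor of neuroendocrine prostate tumours, was at 9.69, 10.56 and 10.13 in vehicle animals 2 to 4 and at 10.44, 10.39 and 9.92 in CPI1688 animals 1 to 3. It was at 4.80 in vehicle animal 1 and 8.19 in CPI1688 animal 4. These are the libraries that differed most from the others, with a median correlation across genes of 0.813 and 0.881 to the remaining 7 libraries, against 0.888 to 0.936 for the rest. Vehicle animal 1 had low Chga (6.06) and Syp (4.80), vesicle genes of neuroendocrine cells, with high basal keratin Krt5 (11.87) and mesenchymal Vim (13.31). CPI1688 animal 4 had the lowest Epcam and Krt8 of the 8, with Vim at 12.90 and Lars2 at 11.39. In the other 7 TKO libraries Lars2 was at 7.71 to 8.35. Lars2 varied more widely across the series, reaching 21.88 in intact endstage DKO_EE tumours. Skeletal muscle genes took 0.564% of the reads of vehicle animal 2 and 0.143% of those of vehicle animal 3, and at most 0.0106% in the other 6. In vehicle animal 3 nearly all of this was Ttn, at 0.142%. Its skeletal muscle score, the centred mean of the listed genes, was -0.82, against 5.36 in vehicle animal 2. Many results that turn on these animals are given with and without them, while others are given only with all 8 animals.

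No gene passed the test between CPI1688 and vehicle. By limma with Benjamini-Hochberg adjustment, 0 of 16512 genes (0%) had an adjusted p under 0.05, and the smallest adjusted p rounded to 1.0. With limma-voom on recovered reads the count was also 0. At an unadjusted p under 0.05 there were 223 genes higher with CPI1688 (1.35%) and 114 lower (0.69%), and after quantile normalization 165 and 166. In 125 genes (0.757%) all 4 CPI1688 animals were above all 4 vehicle animals, and in 101 (0.612%) all 4 were below. With 4 against 4 and no effect, a share of 0.0286 of genes would be apart, counting both directions. At an unadjusted p under 0.05 the share would be 5%, again counting both directions. The observed shares lay below these, so neither kind of gene was more frequent than chance gives. Genes share the same animals, and the shortfall was not tested. The median change over all genes was 0.02. The median gene had an SD of 0.63 among vehicle animals and 0.45 among CPI1688 animals, or 0.43 and 0.33 without vehicle animal 1 and CPI1688 animal 4. The 95% confidence interval of a change reached 0.98 to either side at the median gene, and for 6904 genes (41.8%) it lay within -1 to 1. For the others it reached past a 2-fold change in at least one direction.

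Genes of PRC2 were at like levels in both groups. Ezh2 (chromosome 6, 47530139 to 47595341, GRCm38) was at 8.45, 9.63, 9.52 and 10.18 in vehicle animals 1 to 4 and at 10.20, 10.06, 9.40 and 9.75 in CPI1688 animals 1 to 4. The groups overlapped throughout, and the lowest value was that of vehicle animal 1. The change was 0.41 (95% interval -0.42 to 1.23), and it was 0.08 without vehicle animal 1. Ezh1, the paralogue that can also methylate lysine 27, had a change of -0.17 (-0.67 to 0.34). Suz12, the scaffold subunit, had 0.08 (-0.40 to 0.56), and Eed, which binds the finished mark, had -0.09 (-0.47 to 0.28). Each of these 4 intervals leaves out a halving. The accessory subunits Aebp2 and Phf19 had changes of -0.16 and 0.27. All 12 measured of 14 listed PRC2 genes lay between -0.17 and 0.41, with a median of 0.05 against 0.02 over all genes, and none had an unadjusted p under 0.05. The 22 PRC1 genes had a median of 0.04, Cbx2, a reader of the mark, being at 0.48 and Rnf2, the ubiquitin ligase, at -0.15. Listed demethylases of lysine 27 with their COMPASS partners, subunits of SWI/SNF, and DNA methylation genes had medians of -0.05, -0.03 and -0.02.

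Hox genes, the best known PRC2 targets, had the highest positive median change of the 49 gene lists examined in the main analysis, though no member passed the test. The lists were chosen with earlier results of these data known, so this rank is no independent support. Neutrophil genes had a higher median without vehicle animal 1 (2.58 against 1.42), and neuroendocrine genes with age in the fit (2.03 against 0.89). Of 39 listed, 35 were in the table, 27 of them higher on average with CPI1688, and their median change was 1.38 against 0.02 over all genes. An unadjusted p under 0.05 was reached by 9, all higher, where 1.35% of all genes did so in that direction. Hoxa5, Hoxa6 and Hoxa7, which lie side by side on chromosome 6 and specify position along the body axis, were the 3 whose groups did not overlap, where 0.757% of all genes were apart in that direction. The promoters of Hoxa5 and of Hoxb8, one gene from each of the clusters that differed most, are shown with that of Coch, a gene outside the clusters described further on, because Polycomb complexes are known to settle at CpG-rich gene starts. Each line gives the 250 bases before the RefSeq start (GRCm38.p6), read 5′ to 3′ on the gene's strand, with every CG in capitals.
Hoxa5, chr6:52204588-52204837, minus strand: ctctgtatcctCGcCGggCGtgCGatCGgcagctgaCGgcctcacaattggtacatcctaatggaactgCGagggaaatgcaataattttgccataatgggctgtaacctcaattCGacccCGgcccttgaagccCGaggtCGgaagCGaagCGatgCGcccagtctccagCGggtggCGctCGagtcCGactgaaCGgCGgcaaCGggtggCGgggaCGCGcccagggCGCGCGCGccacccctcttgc
Hoxb8, chr11:96281655-96281904, plus strand: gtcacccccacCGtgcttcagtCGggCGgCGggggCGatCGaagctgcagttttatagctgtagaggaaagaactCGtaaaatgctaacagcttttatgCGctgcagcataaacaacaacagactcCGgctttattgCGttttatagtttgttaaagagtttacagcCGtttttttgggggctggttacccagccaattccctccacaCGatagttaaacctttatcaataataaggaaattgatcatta
Coch, chr12:51593091-51593340, plus strand: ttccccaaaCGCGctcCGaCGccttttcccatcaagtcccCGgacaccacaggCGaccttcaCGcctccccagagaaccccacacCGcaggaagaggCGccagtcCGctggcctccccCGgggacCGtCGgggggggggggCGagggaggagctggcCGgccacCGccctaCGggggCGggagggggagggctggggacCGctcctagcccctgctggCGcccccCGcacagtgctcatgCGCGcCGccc
The dinucleotide CG, the same on both strands, occurs 28 times before Hoxa5, 12 times before Hoxb8 and 24 times before Coch, against a median of 6 in 32851 RefSeq promoters of that length. As many or more were found in 7.61%, 33.5% and 12.0% of those promoters. RefSeq entries were found for 21 of the 35 Hox genes.

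Hoxa5 (chromosome 6, 52201754 to 52204587) was at 5.67, 5.77, 4.50 and 5.96 in vehicle animals 1 to 4 and at 7.62, 6.85, 6.82 and 6.65 in CPI1688 animals 1 to 4. Every treated animal was above every vehicle animal, with a change of 1.51 (SE 0.41) that ranged from 1.19 to 1.69 over the 20 alternative analyses. Hoxa6 (chromosome 6, 52206288 to 52208722) was at 3.38, 3.12, 2.47 and 2.53 with vehicle and at 5.68, 4.27, 4.61 and 5.16 with CPI1688, a change of 2.06 (SE 0.48). Hoxa7 (chromosome 6, 52214491 to 52221854) was at 5.97, 6.11, 4.64 and 6.49 with vehicle and at 8.91, 7.88, 8.09 and 6.58 with CPI1688, a change of 2.06 (SE 0.57). Its exons overlap those of Hoxaas3 on the other strand, so reads of the pair may be shared. The separation of Hoxa7 is narrow, 6.49 against 6.58 at the edge.

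Hoxb genes had larger mean changes and much wider scatter. Hoxb8 (chromosome 11, 96281905 to 96285315) was at 5.42, 5.38, 1.10 and 3.03 with vehicle and at 9.89, 5.08, 8.76 and 6.72 with CPI1688. The change was 3.88 (SE 1.30), and CPI1688 animal 2 lay below vehicle animals 1 and 2. Hoxb9, named after its values were seen as the largest change of the clusters, was at 6.28, 6.17, 1.10 and 0 with vehicle and at 10.06, 4.27, 9.17 and 7.55 with CPI1688, a change of 4.38 (SE 1.81). The same animals were thus high and low in both genes. Averaged over the 9 measured Hoxb genes, vehicle animals 1 to 4 were at 6.26, 5.39, 1.99 and 3.0 and CPI1688 animals 1 to 4 at 8.45, 4.56, 7.36 and 6.30. Vehicle animals 3 and 4 were the lowest, and CPI1688 animal 2 fell among the vehicle animals.

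The clusters differed in their pattern. Of 11 Hoxa genes 10 were higher on average with CPI1688, with a median change of 1.38, 5 at an unadjusted p under 0.05, against 1.35% of all genes. Of 9 Hoxb genes all were higher, with a median of 2.30 and 4 at that p. Of 9 Hoxd genes 8 were higher, with a median of 0.93 and none at that p. The 6 measured Hoxc genes were all lower on average with CPI1688, with a median of -0.43, or of 0 with the 4 that every CPI1688 library lists at 0 set to their bound of 3 reads a library. Their highest values were 3.56 for Hoxc6 in vehicle animal 1 and 3.44 for Hoxc10 in vehicle animal 2, and none had an unadjusted p under 0.05. Posterior members of Hoxa stood less apart, Hoxa9 at 7.76 to 9.30 with vehicle and 8.30 to 9.80 with CPI1688, and Hoxa10 at 6.78 to 8.21 and 7.62 to 8.59. Each animal's mean over the 35 genes, centred on the 8 animals, was 0.41, -0.26, -1.57 and -0.95 with vehicle and 1.11, 0.03, 0.63 and 0.60 with CPI1688. CPI1688 animal 2 lay below vehicle animal 1 on this score, so the groups overlapped. The median Hox change was between 0.84 and 1.71 over the alternatives, and it was 1.61 without vehicle animal 1 and CPI1688 animal 4.

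**Figure D1:**
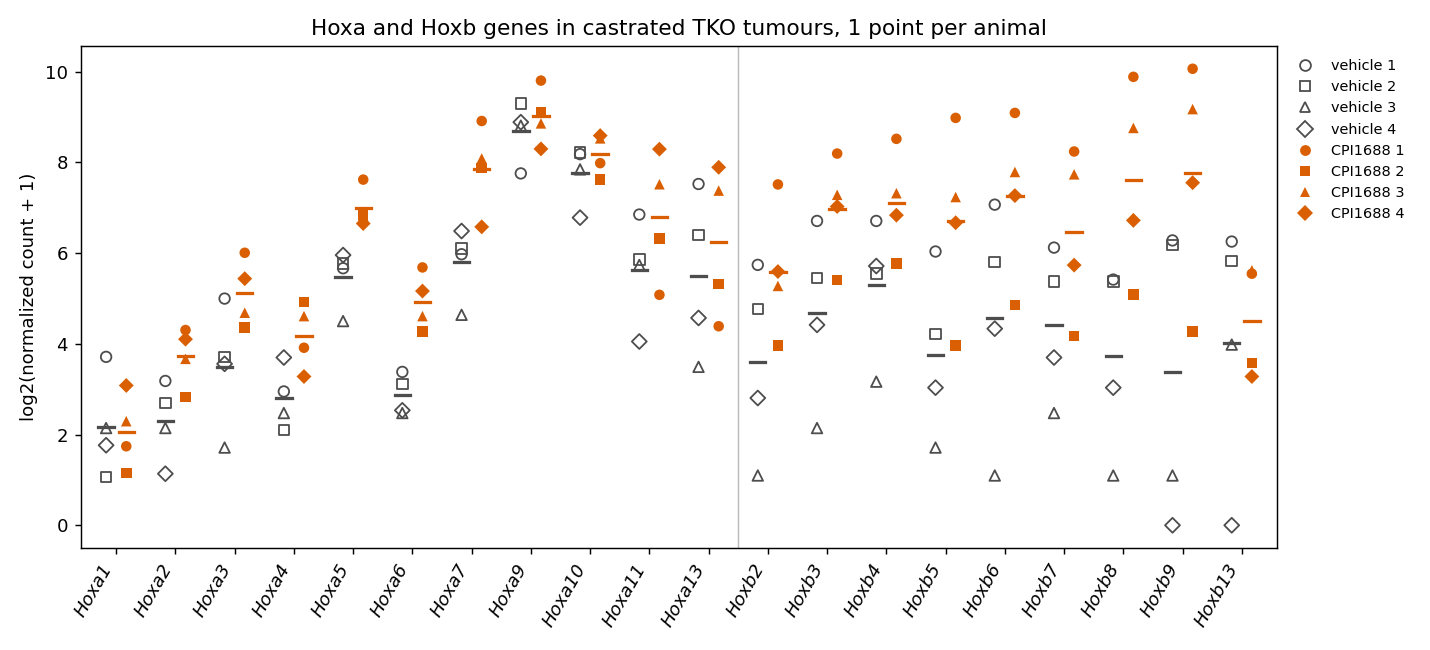
Log2 normalized count (y axis) of each measured Hoxa and Hoxb gene (x axis) in the 4 vehicle animals (open grey) and the 4 CPI1688 animals (filled orange), with bars at group means. Hoxa5, Hoxa6 and Hoxa7 separate the groups, while in Hoxb genes CPI1688 animal 2 (square) sits among the vehicle animals.

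Other developmental factors under Polycomb control had a median closer to that of all genes. Of 142 listed, 101 were measured, 60 were higher and 41 lower on average, and the median change was 0.21, or -0.12 without CPI1688 animal 4. An unadjusted p under 0.05 was reached by 3 higher and 2 lower, where 1.35% and 0.69% of all genes did so. Neurog3, a proneural factor of endocrine cells, was listed at 0 in all 4 vehicle libraries and was at 4.68, 3.58, 5.32 and 0 in CPI1688 animals 1 to 4. Neurod1, which acts after such factors, was at 0, 0, 2.14 and 0 with vehicle and at 4.61, 0, 4.45 and 5.06 with CPI1688. Lhx3, a factor of motor neurons and pituitary, was at 1.23, 1.67, 0 and 1.14 against 3.01, 2.22, 2.63 and 2.24. Both Neurog3 and Neurod1 thus had a treated animal at 0, while for Lhx3 the groups did not overlap at levels of a few reads. Exons of all 3 overlap another gene in the annotation. Gata3, a luminal epithelial factor, was the reverse, at 8.94, 9.85, 9.24 and 8.91 with vehicle and at 7.81, 8.65, 5.90 and 8.57 with CPI1688, a change of -1.50 (SE 0.59) without overlap.

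The genes of smallest unadjusted p are described next, although none was called. Nmnat2 (chromosome 1, 152954993 to 153119261), a neuronal enzyme of NAD synthesis that protects axons, was at 5.32, 5.55, 5.04 and 3.56 with vehicle and at 7.37, 8.34, 8.90 and 7.26 with CPI1688. Its change was 3.10 (95% interval 1.82 to 4.37), and each treated animal was above each vehicle animal by a wide gap. Coch, a secreted matrix protein known from the inner ear, was at 1.88, 3.71, 2.74 and 3.40 against 8.50, 6.66, 5.93 and 5.80, a change of 3.79 (2.16 to 5.41). Pcsk2, the prohormone convertase of neuroendocrine granules, was at 1.23, 3.12, 4.43 and 0 against 8.04, 5.23, 7.88 and 8.58, a change of 5.24 (2.71 to 7.77). Lgi1, a secreted synaptic protein, was at 2.33, 4.12, 5.99 and 5.34 against 7.61, 7.88, 7.65 and 7.87. The treated animals were closely grouped in Lgi1, and vehicle animal 1 was the lowest. In these genes the change held its sign in all 20 alternatives, a check of little weight for genes picked by their p. The lowest value was 2.66 for Nmnat2, 2.92 for Coch, 3.76 for Pcsk2 and 2.56 for Lgi1.

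The remaining 6 on the higher side also had groups that did not overlap, where 0.757% of all genes were apart in that direction. Picking genes by a small p in these same animals favours such separation, so it adds no support. Tmem178, a membrane protein of the endoplasmic reticulum, had a change of 3.17, Nrk, a kinase, 2.35, and Lrch2, a leucine-rich repeat protein, 1.5. Mest, an imprinted gene, was at 9.10, 9.11, 8.45 and 8.83 with vehicle and at 9.55, 9.68, 10.11 and 9.42 with CPI1688, a change of 0.81 (SE 0.21). Pgm2l1, an enzyme of sugar phosphates, had 0.76, and the tetraspanin Tspan2 had 0.72. Exons of Pcsk2, Lgi1, Mest and Tspan2 overlap a gene on the opposite strand, as do those of Nr3c2, Slc2a12 and Vsig10 below, and whether counting used strand is not given in the sources used here.

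On the lower side, Naip6 (chromosome 13, 100281121 to 100317674) led, at 9.72, 9.95, 9.71 and 8.71 with vehicle and at 8.38, 7.51, 7.55 and 7.58 with CPI1688, a change of -1.77 (SE 0.32). It belongs to a family of near-identical inflammasome receptor copies, so its reads may be split among copies and the value is uncertain. Slc40a1, the iron exporter ferroportin, was at 9.20, 9.04, 9.82 and 8.75 against 7.93, 8.13, 7.76 and 8.27, a change of -1.18 (SE 0.24). Nr3c2, the mineralocorticoid receptor, was at 7.53, 7.43, 8.05 and 7.10 against 6.69, 6.57, 6.05 and 6.76, a change of -1.02 (SE 0.28). In these 3 genes no treated animal reached a vehicle animal. Slc2a12, a glucose transporter, had a change of -1.45, Clip4, a microtubule-binding protein, -1.20, and Zbtb42, a zinc finger repressor, -1.18. Sft2d2, a vesicle transport protein, had -0.57 and Vsig10, an immunoglobulin domain protein, -0.56, also without overlap. Ssh3, a cofilin phosphatase, had -0.68 and Slc44a4, a choline transporter family member of epithelia, -1.42, both with overlap. The 20 genes kept their sign in every alternative run, but they were picked by their p in these same animals. Where groups do not overlap, leaving out an animal could not turn the sign, so this adds no support.

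**Figure D2:**
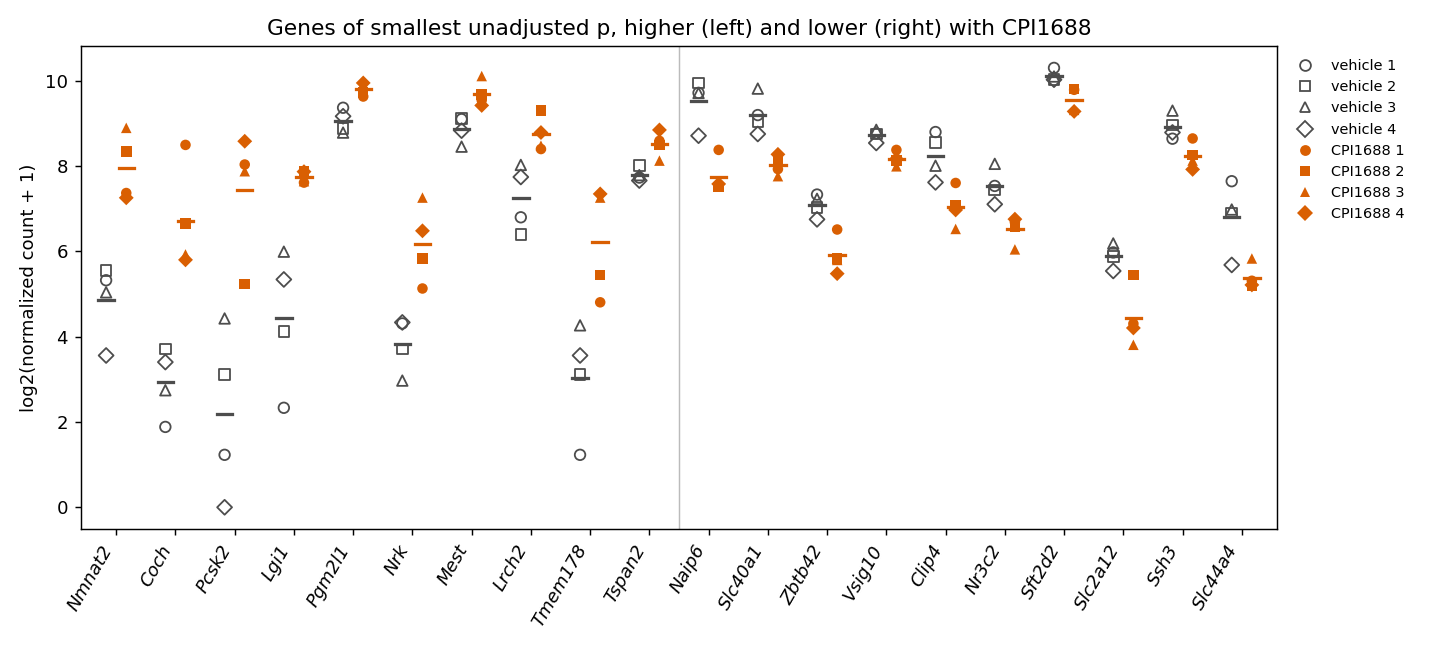
Log2 normalized count (y axis) in each vehicle animal (open grey) and CPI1688 animal (filled orange) of the 10 genes of smallest unadjusted p on each side (x axis), with bars at group means. The groups are apart in all but Ssh3 and Slc44a4, by more than 1 log2 unit in Nmnat2, Coch and Lgi1. The genes were picked by their p in these same animals, which favours such separation.

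Neuroendocrine genes had a positive median change that rested on vehicle animal 1. Of 44 measured of 46 listed, 41 were higher on average with CPI1688, with a median of 0.88, and 3 had an unadjusted p under 0.05, against 1.35% of all genes. Chga was at 6.06, 10.01, 12.22 and 11.17 with vehicle and at 11.89, 11.44, 10.67 and 9.15 with CPI1688. Syp, Sox2 and Foxa2, a vesicle gene and factors of the same program, had changes of 0.72, 0.65 and 0.94. Without vehicle animal 1 the changes were -0.34 for Chga, -0.55 for Syp, -0.47 for Sox2 and -0.39 for Foxa2, and the list median was -0.20. The list score was -3.18, 0.11, 0.86 and 0.23 with vehicle and 0.92, 0.63, 0.32 and 0.12 with CPI1688, so 3 vehicle animals lay within or beside the treated range. Scg2, a granin precursor, Pcsk2 and Neurod1 were the 3 with an unadjusted p under 0.05. Scg2 was at 2.33, 6.34, 8.03 and 8.95 against 9.78, 10.07, 9.77 and 8.66, with a change of 3.16 and of 1.79 without vehicle animal 1. Tubb3, neuronal tubulin, had 1.23, and Ncam1, a neural adhesion molecule, 0.46. Igfbp5, a secreted growth factor binding protein, was at 13.77 to 14.24 with vehicle and at 13.35 to 15.80 with CPI1688. Nefl, a neurofilament gene, was scattered in both groups, from 2.95 to 12.54 and from 4.06 to 10.59, with a change of 0.62.

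Luminal epithelial genes had a negative median change that rested on CPI1688 animal 4. Of 27 measured, 25 were lower on average, with a median of -0.71, and 4 had an unadjusted p under 0.05, where 0.69% of all genes did so on that side. Foxa1, a luminal pioneer factor, was at 9.51, 9.77, 10.55 and 10.78 with vehicle and at 9.96, 9.38, 9.11 and 8.01 with CPI1688, a change of -1.04. Prom1, a progenitor surface marker, had -0.91. Psca, a surface antigen, was at 7.18, 7.19, 1.71 and 1.14 against 0, 0, 0 and 1.17, so it was high in only 2 vehicle animals. The luminal score was 0.84, 0.75, -0.17 and 0.03 with vehicle and 0.18, -0.08, -0.13 and -1.42 with CPI1688. Without CPI1688 animal 4 the list median was -0.15, Krt8 had 0.11 in place of -0.54, and Epcam had -0.02 in place of -0.79. Gata3 and Foxa1 then had -1.78 and -0.67.

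Basal and squamous genes followed vehicle animals 1 and 2. The basal score was 3.32, 1.5, -1.97 and -1.10 with vehicle and -0.35, -1.0, -0.37 and -0.03 with CPI1688. The treated animals were thus close together between 2 high and 2 low vehicle animals. Krt5 was at 11.87, 9.48, 0 and 4.33 against 5.31, 3.25, 4.45 and 6.01, and Perp, a desmosome gene, had a change of -1.48. The basal median was -0.70, and it was 0.20 without vehicle animal 1. Squamous genes had a median of -1.15, or -0.99 with a gene that one group lists at 0 set to its bound of 3 reads a library. It was -0.55 without vehicle animal 1, -0.70 without CPI1688 animal 4 and -0.26 without both. Krt1, a keratin of cornifying epithelium, was at 4.21, 2.70, 1.71 and 1.76 against 2.18, 0, 0 and 0. Androgen response genes had a median of 0.12. Seminal vesicle and secretory genes had a median of -0.66, and of -0.01 with 5 members that one group lists at 0 set to that bound.

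**Figure D3:**
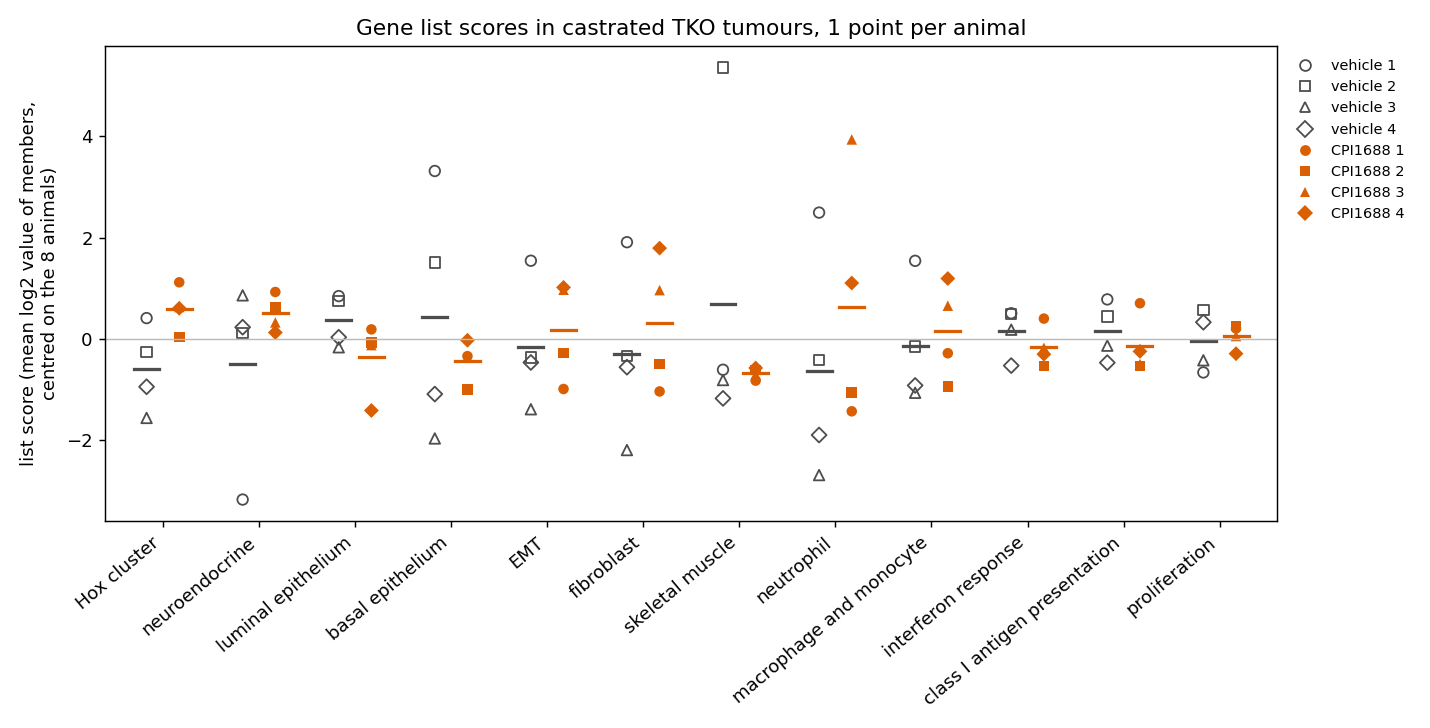
Score of 12 gene lists (x axis), the mean log2 value of the members centred on the 8 animals (y axis), for each vehicle animal (open grey) and CPI1688 animal (filled orange), with bars at group means. Vehicle animal 1 (circle) is low in neuroendocrine and high in basal genes, vehicle animal 2 (square) is high in skeletal muscle genes, and the groups overlap in each list.

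Stromal lists were set by single animals on both sides. Fibroblast genes were higher on average in 23 of 26, with a median of 0.70, and their score was 1.91, -0.35, -2.20 and -0.56 with vehicle and -1.04, -0.50, 0.96 and 1.79 with CPI1688. The treated range lay within the wider vehicle range, and the list median was 0.04 without CPI1688 animal 4 and 1.43 without vehicle animal 1. Fap, a protease of activated fibroblasts, had a change of 1.17, Thy1, a surface protein of fibroblasts and neurons, 1.17, and Postn, a matrix protein, 1.02. EMT factors and mesenchymal markers had a median of 0.38, and of 1.07 without vehicle animal 1, 0.06 without CPI1688 animal 4 and -0.30 with age in the fit, Zeb2, a repressor of epithelial genes, being at 0.89 and at 0.37 without CPI1688 animal 4. Endothelial and smooth muscle genes had medians of 0.29 and -0.21, which became -0.09 without CPI1688 animal 4 and 0.20 without vehicle animal 1. Skeletal muscle genes had a median of -1.40, and Ttn was at 14.77 and 13.34 in vehicle animals 2 and 3 against 6.97 to 9.03 in the other 6 animals. The score of the whole list was high in vehicle animal 2 only, at 5.36, and was -0.82 in vehicle animal 3. Adipocyte, erythroid, tuft cell and glial lists had medians of -0.27, 0.30, 0.06 and -0.03. The tuft cell median was 0.52 without vehicle animal 1, and the erythroid median was -0.47 without CPI1688 animal 4.

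Immune genes gave no call. Neutrophil genes had a median of 1.17, with all 14 measured members higher on average, or 0.96 with 1 member that a group lists at 0 set to its bound, and 0.06 with age in the fit. It was 2.58 without vehicle animal 1 and 2.20 without both this animal and CPI1688 animal 4. Their score was 2.49, -0.42, -2.70 and -1.91 with vehicle and -1.44, -1.07, 3.94 and 1.10 with CPI1688. S100a8, a neutrophil alarmin, was at 7.39, 4.21, 1.71 and 1.14 against 2.51, 4.86, 10.44 and 5.63, so CPI1688 animal 3 alone was above every vehicle animal. Macrophage genes had a median of 0.33, and of 0.83 without vehicle animal 1 and 0.04 without CPI1688 animal 4. Spp1, osteopontin, made by macrophages and tumour cells, was at 8.24 to 10.96 with vehicle and at 10.49 to 13.63 with CPI1688, with a change of 2.36 (SE 0.78). T and NK cell genes had a median of 0.09. Ncr1, an NK cell receptor, was listed at 0 in all vehicle libraries and was at 1.74, 2.22, 1.20 and 1.17 with CPI1688, which is 1 to a few reads a library. Nkg7, a granule gene of killer cells, was at 0, 2.10, 0 and 0 against 1.12, 1.78, 2.63 and 2.24. B cell, dendritic cell and class II antigen presentation genes had medians of 0.17, 0.04 and 0.21.

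Interferon and class I genes were lower on average, within the spread of the animals. Of 50 measured interferon response genes 40 were lower, with a median of -0.41 that ranged from -0.66 to -0.10 over the alternatives, and none had an unadjusted p under 0.05. Irf9, a subunit of the interferon-induced transcription complex, had a change of -0.69, Zbp1, a nucleic acid sensor, -0.80, and Oas3, an antiviral enzyme, -0.81. Isg15, an interferon-induced ubiquitin-like protein, was at 8.24, 7.59, 6.56 and 5.30 with vehicle and at 7.45, 5.80, 6.64 and 6.40 with CPI1688. Of 23 class I genes 21 were lower, with a median of -0.37 that ranged from -0.66 to -0.01, being -0.17 without vehicle animal 1 and -0.66 without CPI1688 animal 1. H2-K1, a class I heavy chain, was at 12.49, 12.11, 11.46 and 10.85 against 12.77, 10.73, 10.69 and 11.02, so the highest and the lowest animal were both treated. B2m, the light chain, had -0.25, Tapbp and Erap1, which load and trim peptides, -0.47 and -0.54. Cd274, the checkpoint ligand PD-L1, had 0.00 (95% interval -1.30 to 1.31), and the chemokines Cxcl9 and Cxcl10 had 1.27 and -0.21. Innate nucleic acid sensing genes had a median of -0.07.

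Proliferation and apoptosis genes were near the median of all genes. The 30 proliferation genes had a median of 0.09, Mki67 being at 12.40, 14.35, 13.47 and 14.06 with vehicle and at 13.81, 13.80, 13.40 and 13.49 with CPI1688, and Ccna2, a cyclin of S phase, having 0.39. E2F target genes had a median of 0.09 and E2f3, one of the factors, 0.34. Without vehicle animal 1 the proliferation and E2F target medians were -0.12 and -0.08. The change of Mki67 was 0.05 (95% interval -0.94 to 1.04). CDK inhibitors and senescence genes were higher in 16 of 18, with a median of 0.44, which was 0.75 without vehicle animal 1 and 0.25 without CPI1688 animal 4. Cdkn1c, the imprinted inhibitor p57, was at 6.12, 6.56, 7.61 and 7.41 against 7.36, 8.06, 8.56 and 8.25, a change of 1.13 (SE 0.40), with overlap only of CPI1688 animal 1. Cdkn2a, a classic PRC2 target, had 0.08, and Cdkn1a, the p53 target p21, 0.26. Apoptosis genes had a median of -0.04 and Trp53 targets one of -0.05. Hrk, a death activator, had 2.67 (SE 1.11).

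Among signalling lists, Notch pathway genes had a median of 0.13, or -0.12 with age in the fit, with 3 of 25 at an unadjusted p under 0.05, all higher, against 1.35% of all genes. Hey1 and Heyl, target repressors of the pathway, had changes of 1.11 (SE 0.41) and 1.33 (SE 0.51), and Maml3, its coactivator, 0.67 (SE 0.29). Heyl was at 7.43, 7.28, 6.07 and 7.69 with vehicle and at 7.57, 7.94, 9.63 and 8.63 with CPI1688, so only CPI1688 animal 1 fell within the vehicle range. Wnt and BMP or TGF-beta genes had medians of 0.01 and 0.13, the Wnt effector Lef1 being at 5.97, 2.92, 1.71 and 4.90 against 7.30, 6.93, 6.80 and 4.76. Axon guidance genes had a median of 0.22, with Epha7, an ephrin receptor, at 7.78, 6.68, 7.93 and 8.07 against 8.22, 8.73, 9.35 and 9.58 and Nrp1, a semaphorin receptor, at a change of 0.77. Epha7 did not overlap between the groups. Imprinted genes had a median of 0.72 and 22 of 29 higher. Peg3, a paternally expressed zinc finger gene, was at 6.33, 11.45, 10.04 and 8.80 against 11.26, 11.70, 10.59 and 11.78. With age in the fit, the imprinted median was 0.01. Prostate cancer surface antigens had a median of 0.03, among them Erbb3, a receptor kinase, at -1.30 and Folh1, the antigen PSMA, at 0 to 2.92 with vehicle and 0 to 1.20 with CPI1688. Lineage plasticity factors, intermediate filaments and replication-dependent histones had medians of 0.26, -0.41 and 0.30. Hypoxia, lipid synthesis, unfolded protein and immediate early genes had medians of 0.14, -0.10, -0.12 and -0.17. Without vehicle animal 1 the medians were 0.39 for Wnt, 0.55 for BMP or TGF-beta, 0.63 for axon guidance and 0.36 for immediate early genes.

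**Figure D4:**
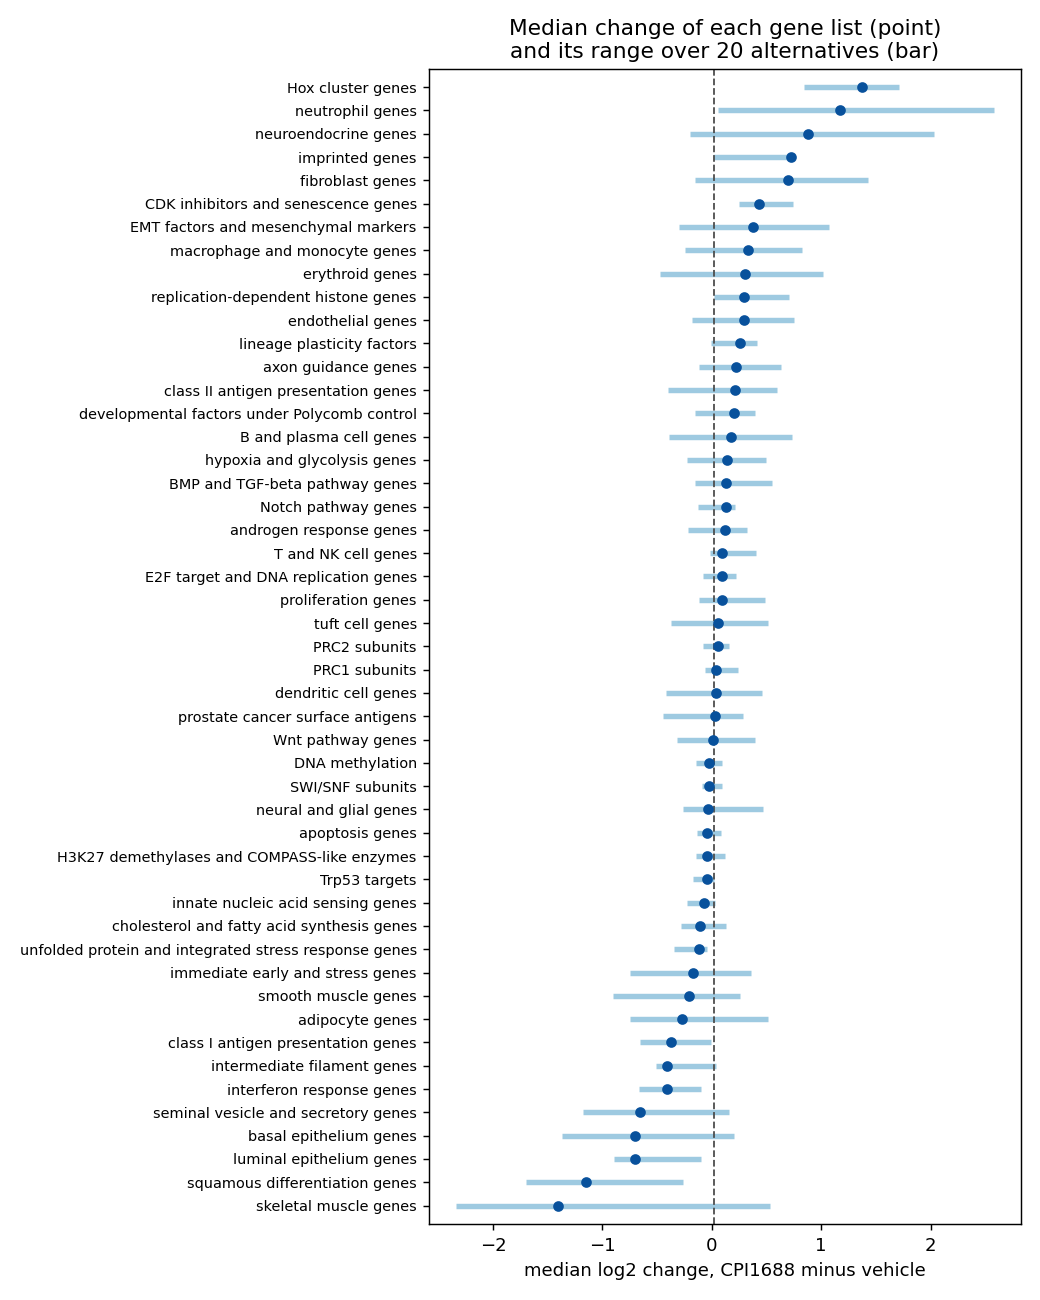
Median log2 change of each gene list between CPI1688 and vehicle (x axis), the point being the main analysis and the bar the range over 20 alternatives, with the dashed line at the median of all genes, 0.02. The Hox list stays between 0.84 and 1.71, while neuroendocrine, fibroblast, basal and skeletal muscle lists reach both sides of 0.

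The genetic comparison asked whether the inhibitor moved the genes that differ with Ezh2 genotype. In castrated tumours, 566 genes (3.42%) were higher and 712 (4.3%) lower in DKO_EE than in DKO among 16558 tested, by limma at an adjusted p under 0.05, 1278 in all, or 454 with age in the fit. No animal is shared with the TKO comparison. The castrated DKO tumours were uneven, with Chga at 3.59 to 10.51 and Krt5 at 0 to 14.23. In DKO_EE these genes were at 10.39 to 11.56 and at 0 to 4.85. Whether such differences of tumour type account for calls by genotype was not tested. Ezh2, the deleted gene, was at 9.36 ± 0.62 in DKO (SD, n = 4, range 8.43 to 9.71) and at 8.46 ± 0.47 in DKO_EE (SD, n = 5, range 8.02 to 9.19), with a change of -0.90 (limma adjusted p = 0.083). The transcript thus overlapped between the genotypes, and which exons are deleted is not given in the sources used here. Of the higher genes, 358 of 564 measured in TKO (63.5%) were higher on average with CPI1688, with a median change of 0.13. Of the lower genes, 453 of 711 (63.7%) were also higher with CPI1688, with a median of 0.16. Over all genes the share was 52.9%. So both sets leaned the same way between CPI1688 and vehicle, whichever way they differed by genotype. These shares use all 8 animals. Whether they rest on vehicle animal 1, as the neuroendocrine median did, was not tested. At an unadjusted p under 0.05, 11 of the higher set went with the genotype and 1 against it, and in the lower set 8 went each way. Over all genes 1.35% were higher and 0.69% lower at that p, against 1.95% and 0.18% of the higher set and 1.13% each way of the lower set.

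The genes of largest change by genotype are given one by one, and not all of them leaned higher with CPI1688. Nefl and Nefm, neurofilament genes that lie side by side with overlapping exons, were higher in DKO_EE by 11.84 and 9.64, and they had changes of 0.62 and 1.12 with CPI1688. Pcdh10, a protocadherin, was higher by 9.07 and had 0.13, and Slc38a11, an amino acid transporter, was higher by 7.24 and had 1.02. Epha5, an ephrin receptor, and Kcnh5, a potassium channel, were each higher by 6.68 and had 2.27 and 1.98. Without vehicle animal 1 the changes with CPI1688 were -1.03 for Nefl, -0.40 for Nefm, -0.96 for Pcdh10 and -0.16 for Slc38a11. Those of Epha5 and Kcnh5 were then 0.76 and 0.84. On the other side, Onecut2, a transcription factor of neuronal and liver lineages, was lower by 8.56 in DKO_EE. In TKO it was at 10.11, 9.11, 8.53 and 9.60 with vehicle and at 9.36, 9.26, 10.51 and 8.49 with CPI1688, and the change was 0.07 (95% interval -1.01 to 1.14). Sim2, a basic helix-loop-helix factor, was lower by 7.21 in DKO_EE and had -2.45 with CPI1688. Dpp10, a potassium channel subunit, was lower by 6.82 and had 1.91. Without vehicle animal 1, Sim2 and Dpp10 had -3.26 and 1.22. Hoxa and Hoxb genes gave no call by genotype, Hoxa5 being at 5.28 ± 1.62 in DKO (SD, n = 4) and 5.72 ± 1.55 in DKO_EE (SD, n = 5). The 4 Hox genes called there were all Hoxd genes, and all were higher.

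A direct test of the difference between the changes called 26 of 16635 genes (0.156%), by limma over the 5 castrated groups. All 26 were called by genotype, 22 lower and 4 higher in DKO_EE, and their changes with CPI1688 lay between -0.27 and 2.53. For Onecut2 the difference was 8.62 (SE 0.89, adjusted p = 0.000119). Akr1c19, an aldo-keto reductase of a multi-copy family, followed with a change of -8.41 by genotype and 2.24 with CPI1688, where CPI1688 animal 3 was at 9.09 and the other treated animals at 1.74 to 5.37. Akr1c19 and the genes that follow were chosen after their values were seen. Gli1, a target and effector of Hedgehog signalling, was lower by 4.74 in DKO_EE and was at 5.55, 4.03, 0 and 1.14 with vehicle and at 2.78, 5.18, 6.42 and 5.11 with CPI1688, with overlap. Of the genes higher in DKO_EE, Fign, a microtubule-severing enzyme, differed by 4.40 there and 0.83 here, and Slc16a1, a lactate transporter, by 3.70 and -0.20. The number called depended on single animals, being 328 without vehicle animal 1, 99 without DKO animal 2, 3 without vehicle animal 4 or without DKO animal 1, and 4 without CPI1688 animal 3 or 4. It was 61 without CPI1688 animal 1.

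**Figure D5:**
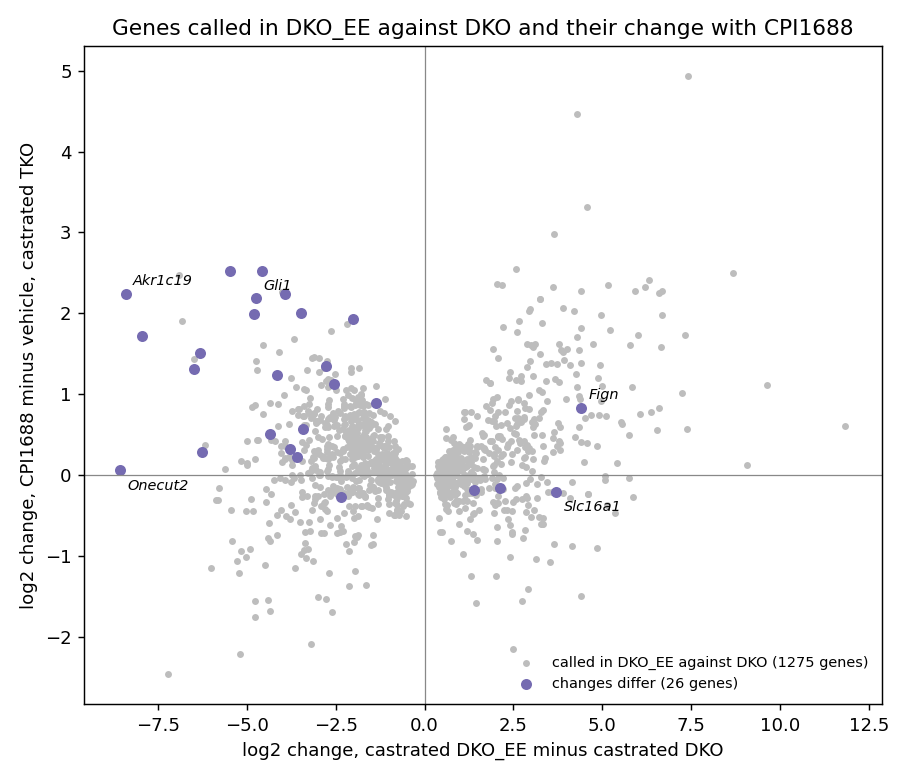
Log2 change with CPI1688 in castrated TKO (y axis) against the log2 change in castrated DKO_EE over DKO (x axis) for each gene called in the latter (grey), with the 26 genes whose changes differ in purple. Grey points lean above 0 on both sides, and Onecut2 is near 0 on the y axis at -8.56 on the x axis.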

How the data were processed

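Bulk RNA-seq of mouse prostate tumours was used, from total RNA depleted of ribosomal RNA (miRNeasy extraction, RNA HyperPrep Kit with RiboErase, per the labels' protocols). The authors deposited 1 table of log2 values, read here as log2 of a normalized count plus 1, for 16772 genes. The submitters' processing notes name FastQC, STAR, RSEM, limma and DESeq2 with GRCm38 and mm10, without versions. Of 56 columns, 54 matched a sample by name and 2 were not used. Dividing out a step for each library gave whole reads for 100% of values within 0.05 of a whole number, which supplied the depths.

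Groups came from genotype and treatment labels. Each castrated animal gave 1 library, while 6 intact animals gave 2, which were averaged in the fit of all 11 groups. The members and gene lists were chosen with earlier results of these data known. Changes were tested on the deposited values with limma 3.58.1 (lmFit, eBayes with trend, R 4.3.3), two-sided, over all genes with any spread, with Benjamini-Hochberg adjustment and a threshold of 0.05. Only the 8 TKO libraries entered the CPI1688 comparison. DKO_EE against DKO used the castrated DKO, DKO_EE and DKO_EP groups, and the test of the difference used all 5 castrated groups. p-values measure the spread among animals. The fits were tested on simulated data. Ages were compared by an exact permutation test (scipy 1.17.1). Tables and plots used Python 3.11.15 with pandas 2.3.3, numpy 2.4.6 and matplotlib 3.10.9. Gene positions are GENCODE M21 (GRCm38), which matched 16750 genes.

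Named genes are the 10 of smallest unadjusted p in each direction, without unnamed models, receptor segments and the lowest 25% by mean, then up to 4 members of smallest p in each list, 35 set genes, and the 10 largest changes called by genotype. Hox genes shown as the clusters, and genes said so in the text, fall outside that rule. Some genes the rule names are not reported here. The alternatives were a filter on the lowest 25%, an offset of 8, quantile normalization, limma without trend, limma-voom on recovered reads, array weights, larger fits, age as a covariate and leaving out each animal. Added after seeing the data were leaving out vehicle animal 1 and CPI1688 animal 4 together, and Ttn or Vim as a covariate.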

Additional observations from a re-analysis of the deposited data

Results flagged for a closer look

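Each group of 4 TKO animals was searched for an animal far from its other 3, over 110 genes and 49 list scores. Of 318 groups, 23 had one. A group with 3 animals at 0 is flagged whatever the value of the other animal, as for Pbsn and Psca with CPI1688. Genes and lists also share the same animals, so the count cannot be set against the 5% that chance gives. Vehicle animal 1 accounted for 6 and vehicle animal 4 for 0.

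Vehicle animal 1 was far below the others in Foxa2 (4.80) and Syp (4.80), and above them in the scores of T and NK cell genes (0.77), B and plasma cell genes (1.51), dendritic cell genes (0.95) and class II antigen presentation genes (1.41). Neuroendocrine and lymphoid genes thus set this tumour apart in opposite directions. Vehicle animal 2 was high in the skeletal muscle score (5.36), the seminal vesicle and secretory score (1.87), the lineage plasticity score (0.12) and Nkg7 (2.10). Vehicle animal 3 was the only vehicle animal with Neurod1 (2.14).

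CPI1688 animal 1 was high in H2-K1 (12.77), Naip6 (8.38) and Krt1 (2.18), and low in Dlx6os1 (1.12). CPI1688 animal 2 had Neurod1 at 0 and was the one animal with Pbsn (1.15). CPI1688 animal 3 was low in Nefl (4.06) and Pcdh10 (6.07), both neuronal genes, and was alone in its group with Folh1 (1.20) and Gm4349 (1.20), a gene model. CPI1688 animal 4 was high in Lars2 (11.39) and alone with Psca (1.17).

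Some genes had a change with CPI1688 that differed from the change by Ezh2 genotype, by the limma contrast. The first minus the second was 8.62 for Onecut2, 10.65 for Akr1c19 and 6.93 for Gli1. It was -3.57 for Fign and -3.90 for Slc16a1.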

How the results depend on the processing

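No gene was called between CPI1688 and vehicle under any alternative but the fit of all 11 groups, which called 3. These were Dlx6os1 (change 2.29, limma adjusted p = 0.000564) and Grm3 (2.14, adjusted p = 0.0379), both listed at 0 in every vehicle library, and Gm4349 (-2.36, adjusted p = 0.0379). That fit takes the spread from tumours of other genotypes and ages, with pieces of 1 animal averaged. The smallest adjusted p of the comparison was 0.136 with the 5 castrated groups in 1 fit and 0.438 without CPI1688 animal 4. For DKO_EE against DKO, the 1278 calls became 2407 with array weights, 454 with age as a covariate, and 780 to 1796 when an animal was left out. For the difference between the changes, the 26 calls became 15 without the lowest 25% of genes, 17 after quantile normalization, 9 with limma-voom, 407 with array weights, 61 with all 11 groups, and 3 to 328 when an animal was left out. The cause was not tested. Of the list medians under alternatives, 969 moved by less than the spread of the animals and 11 by more. Of 2181 values of named genes under alternatives, 78 had the other sign, in 27 genes, and 3 passed the threshold. Of 49 list medians, 39 took the other sign in at least 1 alternative. The age gap was 0.833 to 2.17 weeks when an animal was left out. No paired analysis was possible because the labels give no replicate numbers shared between groups. Genes of a few reads a library, such as Ncr1, are limited by depth as well as by the spread among 4 animals a side.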
